A study of Mus musculus with 14 samples.

Results

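Blnk, Satb1, Itgb7, Icosl, Il16, Lsp1 and Btg1 are genes of lymphocytes and other leukocytes whose RNA was measured in spleens of AcB61 and AcB55 mice relative to spleens of A/J mice. They were chosen by gene symbol, with their ratios already known, and each had 1 probe with a single symbol in the platform annotation. They make up 7 of 6286 named genes and of 13045 rows tested in all, a row being a named gene or an unnamed probe. AcB61 (8 arrays) and AcB55 (6 arrays) are recombinant congenic mice, in which stretches of the C57BL/6 genome were bred onto an A/J background, and A/J is the parent strain that served in the second channel of every array. As background, both congenic strains are known to carry a loss-of-function allele of the red cell pyruvate kinase gene Pklr, and the title of the series names malaria resistance. The labels give no age, sex, infection or treatment for any of the 3 strains. They do not say which arrays share a mouse or an RNA pool, so the spread between arrays may be technical.

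The values are log ratios, read as log2, of a cDNA array with 2 channels. A value of 0 means equal signal of the strain and A/J, and a value of -1 means that the strain has 2-fold less. The direction is likely and not settled, because the labels list the strain first and A/J second for each array but leave out the dyes. A ratio holds no level, so neither the amount of a transcript nor the identity of the tissue could be checked. A lower ratio in whole spleen can come from fewer cells of a type or from less RNA per cell, and these cannot be told apart.

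The 7 genes stand for different steps in the life of a lymphocyte. A B cell signals through its antigen receptor with the help of the adaptor protein BLNK, which links the kinase SYK to phospholipase C gamma. SATB1 is a chromatin organiser of thymocytes and T cells, and BTG1 is an antiproliferative protein that recruits the CCR4-NOT deadenylase and is high in resting lymphocytes. Integrin beta 7, encoded by Itgb7, pairs with alpha 4 to bring lymphocytes to the gut and with alpha E to bind E-cadherin. ICOSL on antigen-presenting cells binds ICOS on T cells, interleukin 16 is a chemoattractant for cells that carry CD4, and LSP1 is an actin-binding protein of leukocytes.

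Sequences just before the start of transcription are shown for 4 genes. Blnk, Btg1 and Il16 hold motif matches that differ from each other, and Itgb7 holds none. Whether any match bears on the ratios was not tested. RefSeq promoters of GRCm38.p6 were found for 6 of the 7 genes, all but Lsp1, with 12 promoters in all. Each line below gives 250 bases 5′ to 3′ that end just before the start, with motif matches in capitals. The motifs were chosen with these promoters in view. They were ATTTGCAT (the octamer of POU factors), AGGAAGT (an ETS core), CAGGTG (an E-box), TGTTTAC (a forkhead motif) and GGAATTTCC (an NF-kappa-B core), each searched on both strands. No matches overlapped.
Blnk, chr19:40994222-40994471, minus strand: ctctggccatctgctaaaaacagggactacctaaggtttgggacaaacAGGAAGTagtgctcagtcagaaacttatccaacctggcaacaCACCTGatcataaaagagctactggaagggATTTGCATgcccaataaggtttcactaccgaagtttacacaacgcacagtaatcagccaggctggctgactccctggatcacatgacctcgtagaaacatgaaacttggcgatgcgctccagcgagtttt
Btg1, chr10:96616751-96617000, plus strand: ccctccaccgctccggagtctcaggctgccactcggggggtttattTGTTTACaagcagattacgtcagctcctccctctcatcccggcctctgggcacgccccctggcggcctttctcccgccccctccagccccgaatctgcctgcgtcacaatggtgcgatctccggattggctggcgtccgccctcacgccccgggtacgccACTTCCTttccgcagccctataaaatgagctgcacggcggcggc
Il16, chr7:83655496-83655745, minus strand, the third listed start: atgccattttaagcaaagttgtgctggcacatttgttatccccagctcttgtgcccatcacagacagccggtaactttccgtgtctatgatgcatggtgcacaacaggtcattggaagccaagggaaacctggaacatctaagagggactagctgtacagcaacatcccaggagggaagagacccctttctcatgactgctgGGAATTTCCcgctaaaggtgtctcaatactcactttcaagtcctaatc
Itgb7, chr15:102231936-102232185, minus strand: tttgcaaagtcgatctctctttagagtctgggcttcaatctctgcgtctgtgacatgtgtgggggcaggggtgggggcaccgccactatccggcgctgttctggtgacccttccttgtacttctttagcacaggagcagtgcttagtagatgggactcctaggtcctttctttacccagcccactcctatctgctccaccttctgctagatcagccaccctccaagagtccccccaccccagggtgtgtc
The Blnk promoter held the octamer 130 to 123 bases before the start, an ETS core 202 to 196 bases before it and an E-box, as CACCTG, 160 to 155 bases before it. The Btg1 promoter held a forkhead motif 204 to 198 bases before the start and an ETS core on the other strand, as ACTTCCT, 44 to 38 bases before it. One of the 3 Il16 promoters held the NF-kappa-B core 48 to 40 bases before the start, and the Itgb7 promoter held none of the letters searched. The E-box was the commonest match, present in 4 of the 6 genes: besides Blnk, it stood once in the Icosl promoter, 2 times in the first listed Il16 promoter and once in the third listed Satb1 promoter, which also held an ETS core. Of 32851 mouse promoters of the same length, 1.6% held the octamer, 7.69% the ETS core, 17.2% the E-box, 3.17% the forkhead motif and 0.286% the NF-kappa-B core. Counted by gene, 19.4% of 27025 genes held the E-box in any of their promoters, and a gene with several promoters has more chances of a match. A match describes letters in this window and was not set against any measurement of binding.

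Each array gave values for 14197 to 14588 features, with array medians from -0.0205 to 0.00867. Across all features the AcB61 arrays correlated with each other at a median of 0.449 (-0.089 to 0.833) and the AcB55 arrays at 0.546 (0.403 to 0.748). Among the AcB61 arrays, arrays 2, 6 and 8 stood apart from arrays 3, 5 and 7. Within these trios the correlations were 0.788 to 0.833 and 0.704 to 0.795, and between them -0.0894 to 0.151. The labels name no difference between these arrays. Of all rows with values, 56.0% did not overlap between the trios, and 25.0% had all of arrays 2, 6 and 8 below arrays 3, 5 and 7. Means of the 7 genes in AcB61, and calls of genes named below that were lost without a trio, are therefore also given without it.

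Among the genes, 5 had ratios below 0 on every array that measured them in both strains, namely Btg1, Lsp1, Itgb7, Blnk and Icosl. Of all rows, 7.69% were below 0 on every AcB61 array and 13.2% on every AcB55 array. Il16 was below 0 on 7 of 8 AcB61 arrays and on all 5 AcB55 arrays with a value, and Satb1 on 6 of 8 AcB61 arrays and 5 of 6 AcB55 arrays. By the limma rule used for all rows (adjusted p under 0.05), AcB61 over A/J called 23.8% of rows, 13.3% as lower and 10.5% as higher, and 6 of the 7 genes as lower, all but Satb1. Over named genes alone the shares were 22.1% in all, 8.80% lower and 13.3% higher. AcB55 over A/J called 20.7% of rows, 10.9% as lower and 9.77% as higher, and again 6 of the 7 genes as lower, here all but Icosl. Over named genes alone the shares were 26.7% in all, 15.5% lower and 11.2% higher. These counts describe genes that were chosen on the same ratios, and nothing is read from them.

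**Figure D1:**
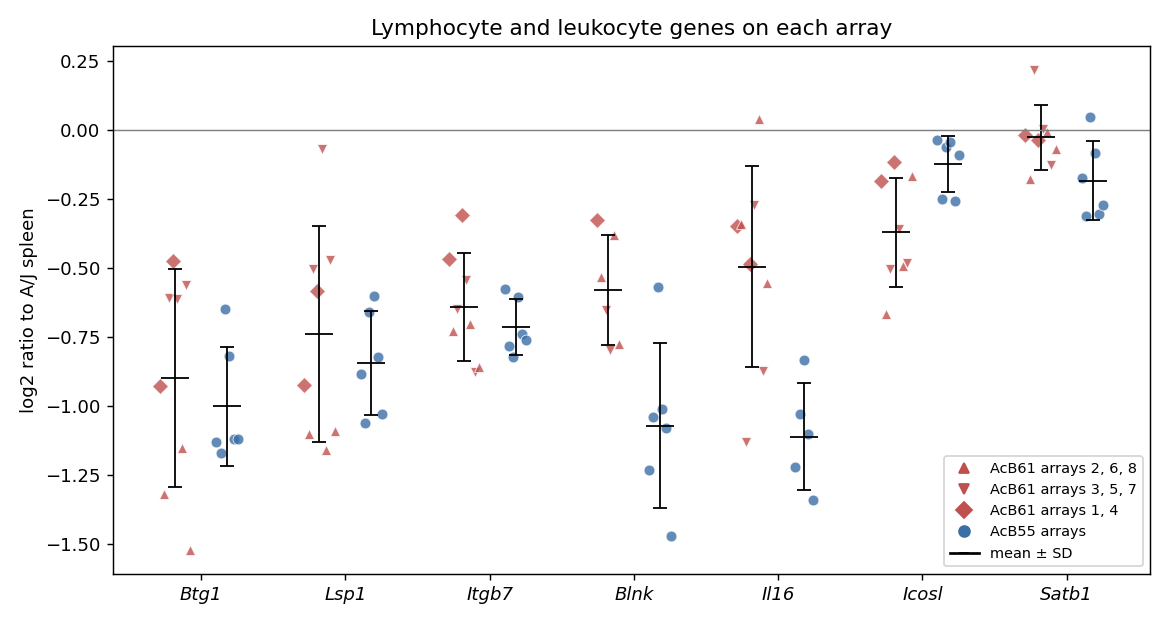
Log2 ratio to A/J spleen of the 7 genes on each array, with AcB61 in red left of AcB55 in blue and bars for the mean ± SD. In AcB61 the arrays 2, 6 and 8 (upward triangles) are the lowest for Btg1, while in AcB55 the ratios of Il16 and Blnk lie below most of those in AcB61.

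Btg1 had the lowest mean ratio of the 7 genes in AcB61. Its log2 ratio was -1.52 on the lowest array, -0.77 at the median and -0.47 on the highest in AcB61, against -1.17, -1.12 and -0.65 in AcB55. The means were -0.90 ± 0.40 (SD, n = 8) in AcB61 and -1.0 ± 0.21 (SD, n = 6) in AcB55, that is 1.86-fold lower than A/J in AcB61 and 2-fold lower in AcB55. All arrays of both strains were below 0, and the strains overlapped. In AcB61 only 6 of 13045 rows had a lower mean, and in AcB55 only 19. The AcB61 arrays did not form a single group, since arrays 2, 6 and 8 lay between -1.52 and -1.15 while arrays 3, 5 and 7 lay between -0.61 and -0.56. The AcB61 mean was -0.64 without arrays 2, 6 and 8 and -1.08 without arrays 3, 5 and 7.

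Lsp1, the actin-binding protein gene, had nearly the same pattern. Its log2 ratio had a lowest value of -1.16, a median of -0.75 and a highest value of -0.066 in AcB61, against -1.06, -0.85 and -0.60 in AcB55. The mean was -0.74 ± 0.39 (SD, n = 8) in AcB61 and -0.84 ± 0.19 (SD, n = 6) in AcB55, that is 1.67-fold lower than A/J in AcB61 and 1.8-fold lower in AcB55. Arrays 2, 6 and 8 of AcB61 lay between -1.16 and -1.09 and arrays 3, 5 and 7 between -0.50 and -0.066. Arrays 1 and 4 lay between these trios. Without arrays 2, 6 and 8 the AcB61 mean was -0.51, and without arrays 3, 5 and 7 it was -0.97. The SD of Btg1 in AcB61 was above that of 96.2% of rows and the SD of Lsp1 above that of 96.1%, whereas the median SD over rows was 0.168.

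Itgb7, the integrin beta 7 gene, varied less between arrays than Btg1 and Lsp1. Its log2 ratio ran over -0.88, -0.68 and -0.31 (lowest, median and highest) in AcB61, against -0.82, -0.75 and -0.58 in AcB55. The mean was -0.64 ± 0.20 (SD, n = 8) in AcB61 and -0.71 ± 0.10 (SD, n = 6) in AcB55, that is 1.56-fold lower than A/J in AcB61 and 1.64-fold lower in AcB55. The 2 strains overlapped, and 3 of 8 AcB61 arrays lay within the AcB55 range. The trios of AcB61 arrays gave close means, -0.76 for arrays 2, 6 and 8 and -0.69 for arrays 3, 5 and 7, and the other arrays, 1 and 4, averaged -0.39.

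Blnk, the B cell adaptor gene, was lower relative to A/J in AcB55 than in AcB61. It had a value on 6 AcB61 arrays, with a lowest log2 ratio of -0.80, a median of -0.59 and a highest of -0.33. On the 6 AcB55 arrays the values were -1.47, -1.06 and -0.57. The mean was -0.58 ± 0.20 (SD, n = 6) in AcB61 and -1.07 ± 0.30 (SD, n = 6) in AcB55, that is 1.49-fold lower than A/J in AcB61 and 2.09-fold lower in AcB55. The highest AcB55 array reached into the AcB61 values, so that 3 of 6 AcB61 arrays lay within the AcB55 range and 3 above it. In AcB55 only 12 of 13045 rows had a lower mean than Blnk, and in AcB61 62 rows did. The AcB61 mean was -0.59 without arrays 2, 6 and 8 and -0.50 without arrays 3, 5 and 7.

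Il16, the gene of the CD4 ligand interleukin 16, had the lowest mean of the 7 genes in AcB55, where it had no value on array 3. Without array 3 the AcB55 mean of Blnk was -1.16, below the -1.11 of Il16. The log2 ratio of Il16 had a lowest value of -1.13, a median of -0.42 and a highest value of 0.043 in AcB61. In AcB55 these values were -1.34, -1.10 and -0.83. The mean was -0.49 ± 0.36 (SD, n = 8) in AcB61 and -1.11 ± 0.19 (SD, n = 5) in AcB55, that is 1.41-fold lower than A/J in AcB61 and 2.15-fold lower in AcB55.
By their means the AcB61 trios stood the other way round than for Btg1 and Lsp1, at -0.28 for arrays 2, 6 and 8 and -0.76 for arrays 3, 5 and 7. Unlike for Btg1 and Lsp1 the trios overlapped, with -0.552 to 0.043 on arrays 2, 6 and 8 and -1.13 to -0.272 on arrays 3, 5 and 7. Without arrays 2, 6 and 8 the AcB61 mean was -0.62, and without arrays 3, 5 and 7 it was -0.34. Of the AcB61 arrays, 6 lay above every AcB55 array and 2 lay within the AcB55 range.

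Icosl, which encodes the ligand of the costimulatory receptor ICOS, was the gene with a lower ratio in AcB61 than in AcB55. Its log2 ratio ran over -0.67, -0.42 and -0.12 in AcB61, against -0.26, -0.075 and -0.035 in AcB55. The mean was -0.37 ± 0.20 (SD, n = 8) in AcB61 and -0.12 ± 0.10 (SD, n = 6) in AcB55, that is 1.29-fold lower than A/J in AcB61 and 1.09-fold lower in AcB55. Of 8 AcB61 arrays, 5 lay below every AcB55 array and 3 lay within the AcB55 range. The AcB61 mean was -0.33 without arrays 2, 6 and 8 and -0.32 without arrays 3, 5 and 7. The mean was lower than that of Icosl in 2.25% of rows in AcB61 and in 19.4% of rows in AcB55.

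Satb1, the chromatin organiser gene of T cells, lay closest to A/J in AcB61. Its log2 ratio had a lowest value of -0.17, a median of -0.026 and a highest value of 0.22 in AcB61, against -0.31, -0.22 and 0.049 in AcB55. The mean was -0.025 ± 0.12 (SD, n = 8) in AcB61 and -0.18 ± 0.14 (SD, n = 6) in AcB55, that is 1.02-fold lower than A/J in AcB61 and 1.13-fold lower in AcB55. The AcB61 mean turned to 0.0094 without arrays 2, 6 and 8, and 40.8% of rows had a lower AcB61 mean than Satb1. In AcB55 12.8% of rows had a lower mean.

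By mean ratio in AcB61 the order from low to high was Btg1, Lsp1, Itgb7, Blnk, Il16, Icosl and Satb1. Each neighbour in that order lay within 1 SD of the next, except Icosl and Satb1. In AcB55 the order was Il16, Blnk, Btg1, Lsp1, Itgb7, Satb1 and Icosl, and the gap wider than the SD of both neighbours was that between Itgb7 and Satb1. Without AcB55 array 3, on which Il16 had no value, Blnk stood below Il16. The plot of the means within all rows shows the 5 lowest genes of each strain at the far left of the distribution.

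**Figure D2:**
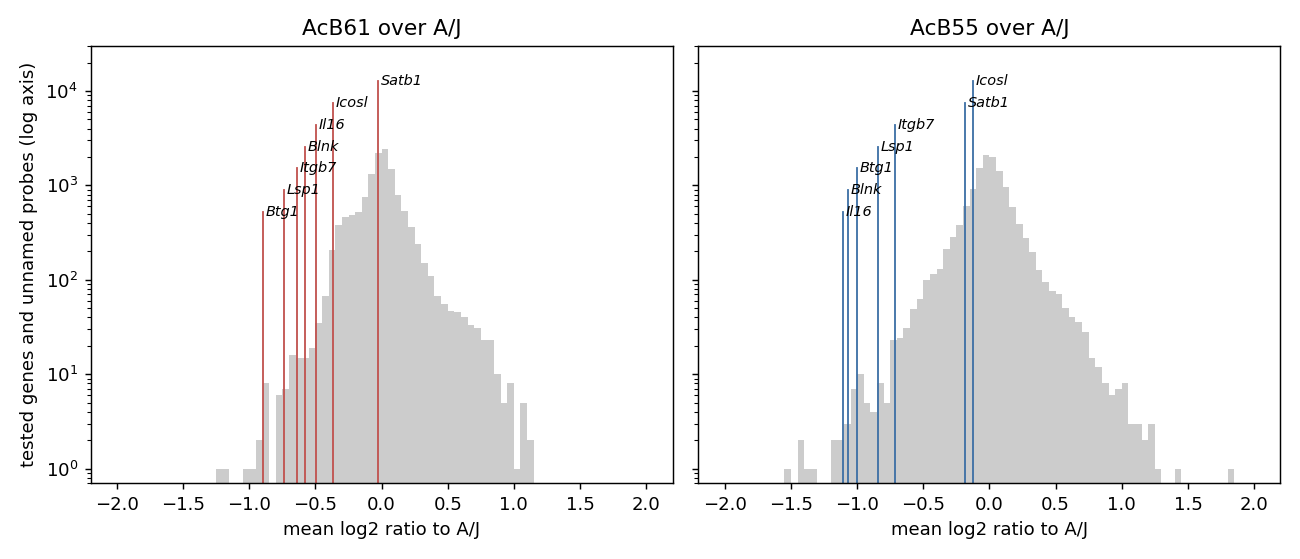
Mean log2 ratio to A/J (x axis) of all 13045 tested rows as grey histograms with a log count axis, AcB61 on the left and AcB55 on the right. Lines mark the 7 genes, and their heights carry no value. Btg1 lies furthest left in AcB61 at -0.90 and Il16 in AcB55 at -1.11, while Satb1 in AcB61 lies in the bulk at -0.025. Il16 has no value on AcB55 array 3, and without that array the mean of Blnk would be lower, at -1.16.

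The difference AcB61 minus AcB55 was above 0 for 6 genes and below 0 for Icosl. It was 0.61 (SE 0.155) for Il16 and 0.49 (SE 0.146) for Blnk, and -0.25 (SE 0.0816) for Icosl. The other differences were 0.16 (SE 0.0713) for Satb1, 0.11 (SE 0.158) for Lsp1, 0.10 (SE 0.165) for Btg1 and 0.073 (SE 0.0803) for Itgb7, of which the last 3 were smaller than their SE. The ranges of the strains overlapped for all 7 genes, whereas they did not overlap for 2.67% of all rows. By the limma rule, 12.3% of rows were called between the strains, 6.98% as lower and 5.29% as higher in AcB61, and among the 7 genes 2 were called, Il16 and Blnk, both as higher. Over named genes alone the shares were 10.4% in all, 3.63% lower and 6.79% higher. The 7 genes were chosen with their ratios known, so nothing is read from the calls of Il16 and Blnk. For Btg1 and Lsp1 the sign depended on the AcB61 arrays used. Without arrays 3, 5 and 7 the difference was -0.079 for Btg1 and -0.13 for Lsp1, and without arrays 2, 6 and 8 it was 0.365 for Btg1 and 0.335 for Lsp1. Both strains were set against A/J spleen RNA, so the comparisons with A/J are not independent of each other.

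Genes whose ratios ran closest to each gene over the arrays were found by the mean absolute difference in log2 ratio. Lsp1 and Btg1 were among the closest of each other, with a mean difference of 0.177, the smallest of all pairs among the 7 genes. Blnk and Il16 differed by 0.202 on average, and Btg1 and Satb1 by 0.849, the largest. For Lsp1 the closest gene was Cxcl12, a chemokine gene of stromal cells, at 0.131, against a median of 0.792 over all genes. For Btg1 the closest after Lsp1 was Nfkbia, the gene of an NF-kappa-B inhibitor, at 0.183, against a median of 0.945. Slc50a1, which encodes a sugar transporter, was closest both to Il16 at 0.162 (13 arrays, median over genes 0.749) and to Blnk at 0.212 (12 arrays, median 0.824). Sorl1, a sorting receptor gene, was closest to Itgb7 at 0.149, against a median of 0.677. Serpinh1, a collagen chaperone gene, was closest to Icosl at 0.121, and Dnajc13, a gene of endosome transport, to Satb1 at 0.0612, against medians of 0.305 and 0.202. The arrays share the A/J channel and genes with ratios near 0 are close to many others, so the likeness is a description.

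The genes related to the 7 by function were taken as 9 lists with 390 genes in all, of which 109 were tested. Of these, 41 fell, 6 rose and 62 did not pass in AcB61 over A/J, and 49 fell, 9 rose and 51 did not pass in AcB55 over A/J. Their median log2 ratio was -0.079 in AcB61 and -0.15 in AcB55, whereas the median of all rows was -0.00067 in AcB61 and -0.0020 in AcB55. Among all named genes, 8.80% fell and 13.3% rose in AcB61, and 15.5% fell and 11.2% rose in AcB55. The counts of each list below stand beside these shares. The lists here and below were chosen with earlier results of these data known. Their counts and p-values are therefore a description, and no enrichment is read from them. The number of related genes that fell in AcB55 was 32 without AcB55 arrays 1 and 2. The share of all rows in that setting is not given here, and the cause of the drop was not tested. All p-values here are from limma, adjusted over all 13045 rows.

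**Figure D3:**
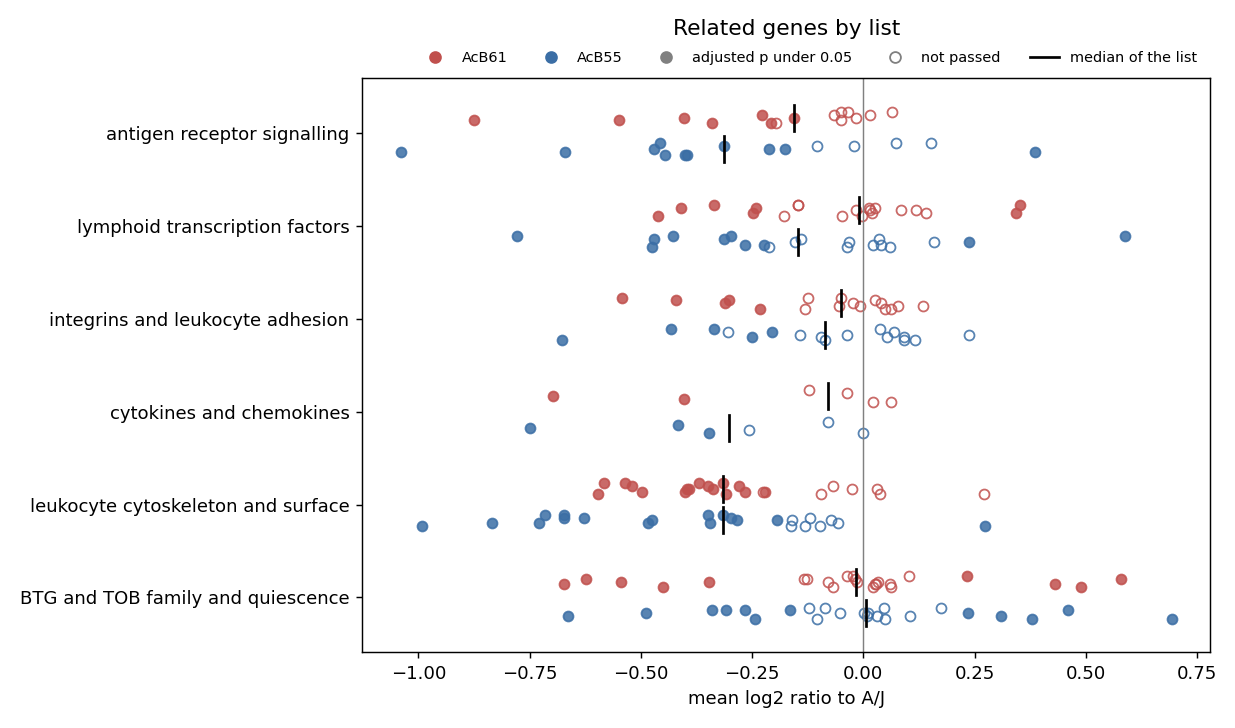
Mean log2 ratio to A/J of each tested gene of 6 lists, AcB61 in red above AcB55 in blue, with filled points for adjusted p under 0.05 and a bar at the median. In AcB61 the leukocyte cytoskeleton and surface list has the lowest median of the 6, at -0.315. In AcB55 its median of -0.316 is close to the -0.314 of antigen receptor signalling and the -0.302 of cytokines and chemokines.

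Around Lsp1, the leukocyte cytoskeleton and surface list had the most members that fell: of 23 tested genes, 16 fell and 0 rose in AcB61 (17 lower and 1 higher at an unadjusted p under 0.05 in limma), and 15 fell and 1 rose in AcB55. Its median was -0.315 in AcB61 and -0.316 in AcB55. By share it did not stand alone. In AcB55 65.2% of it fell, against 66.7% of the antigen receptor signalling list. In AcB61 69.6% of it fell, against 78.6% of the stroma, vessel and platelet genes. Arpc1b, a subunit of the actin-nucleating ARP2/3 complex, fell to -0.60 ± 0.22 (n = 7, adjusted p = 2.77e-05) in AcB61 and -0.99 ± 0.20 (n = 6, adjusted p = 4.21e-07) in AcB55. Rac2, a small GTPase gene of blood cells, fell to -0.58 ± 0.20 (adjusted p = 5.41e-06) in AcB61 and -0.72 ± 0.16 (adjusted p = 2.24e-06) in AcB55. Capg, an actin-capping protein gene, averaged -0.54 in AcB61 and -0.67 in AcB55, and Cyba, a subunit gene of the phagocyte oxidase, -0.52 in AcB61 and -0.67 in AcB55, all past the test. Laptm5, a lysosomal membrane protein gene of leukocytes, fell in AcB55 to -0.84 ± 0.21 (adjusted p = 1.76e-05), was -0.23 ± 0.33 in AcB61 (adjusted p = 0.0794), and was higher in AcB61 than in AcB55 by 0.61 (adjusted p = 0.00891).

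Around Blnk, 15 of 45 antigen receptor signalling genes were tested. Of these, 7 fell and 0 rose in AcB61 (8 lower and 0 higher at an unadjusted p under 0.05 in limma), with a median of -0.155, and 10 fell and 1 rose in AcB55, with a median of -0.314. Nfkbia fell to -0.87 ± 0.30 (adjusted p = 1.67e-06) in AcB61 and -1.04 ± 0.19 (adjusted p = 8.21e-07) in AcB55. Nfkbia had also been singled out as a gene whose ratio moves with the strain. Ptpn6, a phosphatase gene that restrains antigen receptor signals, fell to -0.55 ± 0.38 (adjusted p = 0.000641) in AcB61 and -0.67 ± 0.21 (adjusted p = 0.000333) in AcB55. Plcg2, which encodes the phospholipase that BLNK brings to SYK, fell to -0.34 ± 0.17 (adjusted p = 0.000803) in AcB61 and -0.45 ± 0.20 (adjusted p = 0.00023) in AcB55. Grb2, another partner of BLNK, averaged -0.23 in AcB61 (adjusted p = 0.033, and 0.573 without AcB61 arrays 3, 5 and 7) and -0.31 in AcB55 (adjusted p = 0.0132, and 0.0807 without AcB55 arrays 1 and 2). Cbl, a ubiquitin ligase gene, was the gene that rose in AcB55, at 0.39 ± 0.15 (adjusted p = 0.000302), against -0.051 ± 0.17 in AcB61, and the strains differed by -0.44 (adjusted p = 0.00445). The AcB61 count was 4 without AcB61 array 3, 4 or 7 and without arrays 3, 5 and 7 together, and the AcB55 count of 10 was 6 without AcB55 arrays 1 and 2. Of the markers of B cells, 1 of 34 was tested, Bach2, with -0.17 ± 0.23 in AcB61 (adjusted p = 0.119) and -0.25 ± 0.24 in AcB55 (adjusted p = 0.0497, and 0.449 with a mean of -0.13 without AcB55 arrays 1 and 2).

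Around Satb1, 20 lymphoid transcription factors were tested. Of these, 5 (25%) fell and 2 (10%) rose in AcB61, against 8.80% and 13.3% of all named genes. In AcB55 8 (40%) fell and 2 (10%) rose, against 15.5% and 11.2%, so the shares that rose were near those of all genes. Foxo1, a regulator of lymphocyte homing and survival, fell to -0.46 ± 0.12 (adjusted p = 5.19e-05) in AcB61 and -0.48 ± 0.25 (adjusted p = 0.000126) in AcB55. Id3, an inhibitor of E proteins, averaged -0.34 ± 0.31 in AcB61 (adjusted p = 0.0112, and 0.244 without AcB61 arrays 2, 6 and 8) and -0.78 ± 0.26 in AcB55 (adjusted p = 3.62e-05). Smarca5, a chromatin remodeller known to work with SATB1, rose to 0.35 ± 0.33 (adjusted p = 0.00396) in AcB61 and 0.59 ± 0.09 (adjusted p = 0.000181) in AcB55. Hdac1, a deacetylase partner of SATB1, was 0.084 ± 0.39 in AcB61 and 0.16 ± 0.15 in AcB55 and passed in neither. The AcB61 count of 5 was 2 without arrays 2, 6 and 8 and 8 without arrays 3, 5 and 7, and the AcB55 count of 8 was 5 without AcB55 arrays 1 and 2. Of 40 markers of T and NK cells, 0 had a value that could be tested.

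Around Itgb7, 17 integrin and adhesion genes were tested, of which 5 fell and 0 rose in AcB61 (6 lower and 0 higher at an unadjusted p under 0.05 in limma), and 5 fell and 0 rose in AcB55 (6 lower and 2 higher at that p). Rap1b, a GTPase that activates integrins, fell to -0.54 ± 0.18 (adjusted p = 1.82e-05) in AcB61 and -0.43 ± 0.22 (adjusted p = 0.000483) in AcB55. Selplg, the gene of a selectin ligand, fell to -0.68 ± 0.24 in AcB55 (adjusted p = 3.54e-06), was -0.23 ± 0.13 in AcB61 (adjusted p = 0.0107, 0.0626 without AcB61 arrays 2, 6 and 8 and 0.0952 without arrays 3, 5 and 7), and differed between the strains by 0.45 (adjusted p = 0.00685). Cdh1, E-cadherin, which binds the alpha E beta 7 integrin, was -0.024 ± 0.086 in AcB61 and 0.24 ± 0.32 in AcB55 (adjusted p = 0.0508). The AcB61 count of 5 was 3 without arrays 2, 6 and 8.

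Around Il16 and Icosl, few relatives were tested. Of 6 cytokine and chemokine genes, 2 fell and 0 rose in AcB61, and 3 fell and 0 rose in AcB55, and limma at an unadjusted p under 0.05 also gave 0 as higher in both. Cxcl12 fell to -0.70 ± 0.31 (adjusted p = 1.36e-05) in AcB61 and -0.75 ± 0.18 (adjusted p = 2.35e-05) in AcB55. Of 3 genes of the B7 family and costimulation, Slamf1, a receptor of lymphocytes, fell to -0.22 ± 0.11 (adjusted p = 0.00164) in AcB61 and was -0.020 ± 0.087 in AcB55 (adjusted p = 0.859), and 0 of 3 passed in AcB55, also at an unadjusted p under 0.05. Cd9, a tetraspanin that has been described as a receptor of interleukin 16, was -0.082 ± 0.28 in AcB61 and fell to -0.37 ± 0.26 in AcB55 (adjusted p = 0.0115, and 0.0582 without AcB55 array 5).

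Around Btg1, 24 genes of the BTG and TOB family and of quiescence were tested. Of these, 5 (20.8%) fell and 4 (16.7%) rose in AcB61, against 8.80% and 13.3% of all named genes. In AcB55 7 (29.2%) fell and 5 (20.8%) rose, against 15.5% and 11.2%. Zfp36, whose protein speeds the decay of AU-rich messages, fell to -0.67 ± 0.23 (n = 8, adjusted p = 1.18e-05) in AcB61 and -0.66 ± 0.26 (n = 5, adjusted p = 9.69e-05) in AcB55. Cdkn2c, a cell cycle inhibitor gene, rose to 0.58 ± 0.23 (adjusted p = 9.3e-05) in AcB61 and 0.46 ± 0.25 (adjusted p = 0.00115) in AcB55. Pabpc1, the poly(A)-binding protein gene, rose to 0.49 ± 0.30 (adjusted p = 0.000208) in AcB61 and 0.69 ± 0.11 (adjusted p = 2.5e-05) in AcB55. Btg2, the closest relative of Btg1, was 0.061 ± 0.21 in AcB61 (adjusted p = 0.588) and rose to 0.38 ± 0.19 in AcB55 (adjusted p = 0.00146). The deadenylase genes Cnot7 and Cnot8, whose proteins bind BTG1, passed in neither strain, with -0.037 and -0.068 in AcB61 and -0.087 and -0.10 in AcB55, and Prmt1, a methyltransferase partner, was 0.028 in AcB61 and 0.0085 in AcB55. The AcB55 count of 7 was 3 without AcB55 array 1 or array 2, 4 without array 6 and 2 without arrays 1 and 2, and the 5 that rose were 3 without array 1.

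Between the strains, 4 of the 109 related genes were lower (Cbl, Btg2, Rdx and Sgk1) and 5 higher (Arpc1b, Laptm5, Selplg, Id3 and Il18) in AcB61 than in AcB55. These are 3.67% lower and 4.59% higher, against 3.63% lower and 6.79% higher among all named genes, so the shares lay close to or below those of all genes. The counts moved with the arrays used, to 11 lower and 14 higher without AcB61 arrays 3, 5 and 7. The shares of all named genes above belong to the fit of all arrays. Those without the trio are not given, so the move cannot be called particular to the related genes. Arpc1b was higher by 0.40 (adjusted p = 0.0268) in AcB61, and by 0.25 (adjusted p = 0.117) without AcB61 arrays 2, 6 and 8. The Btg2 difference was -0.32 (adjusted p = 0.0482), and -0.22 (adjusted p = 0.153) without AcB61 arrays 3, 5 and 7. Without a trio of AcB61 arrays the calls of Id3 (adjusted p = 0.133 without arrays 3, 5 and 7), Rdx (0.0668 without arrays 2, 6 and 8) and Sgk1 (0.0527 without arrays 2, 6 and 8) were lost as well. Leaving out a single array was also enough to lose calls. Arpc1b lost its call without AcB55 array 3 or 6 (adjusted p = 0.0744 without array 6) or AcB61 array 1 or 2. Btg2 lost it without AcB55 array 1, 3, 4, 5 or 6 (0.117 without array 6) or AcB61 array 1, 3, 4, 5, 7 or 8. For Id3 these were AcB55 arrays 2 to 6 and AcB61 arrays 1 to 5 and 7. For Rdx they were AcB55 arrays 3 to 6 and AcB61 arrays 1, 2, 4, 5, 7 and 8. Il18 lost it without AcB55 array 4 or 5, and Sgk1 without AcB55 array 5 or 6.

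Markers of other spleen cells moved in the same comparisons. Among all named genes, 8.80% fell and 13.3% rose in AcB61, and 15.5% fell and 11.2% rose in AcB55. Of 21 red cell precursor genes, 18 rose and 0 fell in AcB61 (0 lower also at an unadjusted p under 0.05 in limma) and 16 rose and 1 fell in AcB55, with array medians of 0.535 to 0.733 in AcB61 and 0.34 to 0.817 in AcB55. Of 28 genes of dividing cells, 22 rose and 0 fell in AcB61 and 21 rose and 0 fell in AcB55 (0 and 1 lower at an unadjusted p under 0.05), with array medians of 0.363 to 0.752 in AcB61 and 0.386 to 0.875 in AcB55. Of 10 macrophage genes, 3 fell and 2 rose in AcB61 and 6 fell and 1 rose in AcB55. Stroma, vessel and platelet genes fell in 11 and rose in 1 of 14 in AcB61, and fell in 8 and rose in 0 in AcB55 (9 lower and 0 higher at an unadjusted p under 0.05). Of 7 plasma cell genes, 1 (14.3%) fell and 1 (14.3%) rose in AcB61, near the shares of all named genes, with a median of -0.075. In AcB55 4 fell and 0 rose (5 lower and 0 higher at an unadjusted p under 0.05), with a median of -0.32. For AcB61 minus AcB55 all 7 plasma cell genes were above 0, with a median of 0.28, against a median of 0.045 over all named genes. The 7 genes described above were likewise above 0, all but Icosl. Of the plasma cell genes 1, Xbp1, passed (0.515, adjusted p = 0.039, and 0.116 without AcB61 arrays 2, 6 and 8). The Xbp1 call was also lost without AcB55 array 1, 3, 4, 5 or 6 alone, or AcB61 array 1, 2, 4, 6 or 8 alone. The part of these cells in the ratios of the 7 genes was not tested.

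**Figure D4:**
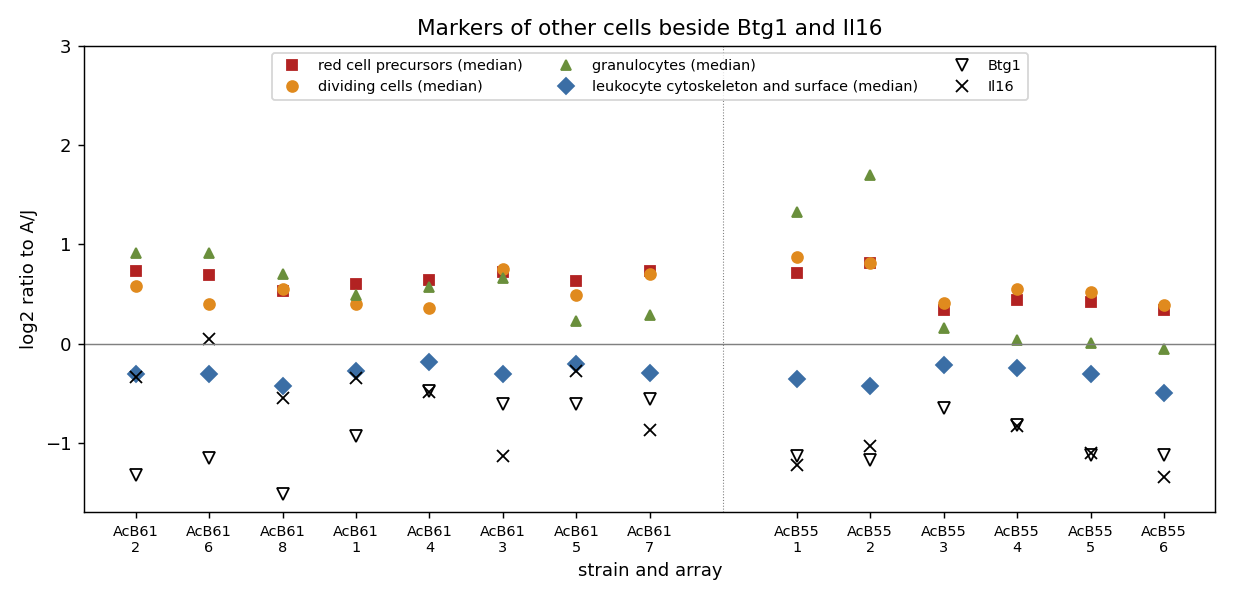
Log2 ratio to A/J of Btg1 and Il16 on each array beside the median ratio of 4 gene lists, with AcB61 arrays left of AcB55 arrays. The red cell precursor and dividing cell medians are above 0 on all 14 arrays, while the granulocyte median stands out on AcB55 arrays 1 and 2, at 1.33 and 1.7.

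Of 4 granulocyte genes, 2 (50%) rose and 1 (25%) fell in AcB61, against 13.3% and 8.80% of all named genes. In AcB55 1 (25%) rose and 0 fell (3 higher and 0 lower at an unadjusted p under 0.05 in limma), against 11.2% and 15.5%. The array medians ran over 0.225 to 0.913 in AcB61 and -0.051 to 1.7 in AcB55. AcB55 arrays 1 and 2 had the highest of these medians. Without them the AcB55 means were -1.09 for Il16, -1.03 for Blnk, -0.928 for Btg1 and -0.779 for Lsp1. They were -0.732 for Itgb7, -0.152 for Satb1 and -0.112 for Icosl. Xist, which is transcribed from the inactive X chromosome in females, averaged -1.20 ± 0.38 in AcB61 (adjusted p = 3.66e-07) and 0.019 ± 0.057 in AcB55. The labels leave out sex, so in AcB61 a difference in sex and a difference in strain cannot be told apart.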

How the data were processed

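Spleen RNA of AcB61 and AcB55 mice was measured against A/J spleen RNA on cDNA arrays with 2 channels. Per the labels' protocols, total or poly(A) RNA was labelled with Cy3 and Cy5, and the images were quantified with QuantArray and imported into GeneSpring. The deposited values were read as log2 ratios, because they are decimals on both sides of 0. The normalization, log base, centring and dyes are not given in the sources used here, and signal strength is unknown.

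Of 15247 features in the table, 14612 were measured. The platform annotation gave 7849 probes a single symbol, 356 several and 6407 none, and gene identifiers of 7830 were found in the reference gene table. Probes of a gene were averaged per array. Rows with at least 3 arrays per strain (13045) were fitted with limma 3.58.1 in R 4.3.3, with lmFit, a mean per strain and eBayes, two-sided, and Benjamini-Hochberg adjustment over all rows at 0.05. The fit was tested on simulated data. A/J was never set against A/J, so the spread among A/J mice is left out. Arrays were counted as replicates and numbered in accession order.

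The 7 genes and the lists were chosen with earlier results of these data known, so the 7 genes carry no test. For the same reason the counts of the lists are a description. Named genes are the 7, up to 4 genes past the threshold with the largest mean per list and comparison, measured partners, the 3 closest genes of each, and Xist and Nfkbia. The text names the leading ones. Alternatives were array centring, scaling, array weights, rows with values on all arrays, fits per strain, medians and arrays left out. The pair of AcB61 trios left out was chosen after the array correlations were seen.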

Additional observations from a re-analysis of the deposited data

Results flagged for a closer look

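Of 146 strain groups of the 7 genes and the named genes, 5 held an array that stood apart by Dixon's criterion, against about 1 in 20 that chance gives. They were Satb1 on AcB61 array 3 (0.219), Ctbp1 on AcB55 array 6 (-0.171), Id2 on AcB55 array 3 (-0.171), Pls1 on AcB55 array 3 (0.0857) and Prmt1 on AcB55 array 2 (-0.166), all log2 ratios to A/J. The Satb1 value was the highest among the AcB61 arrays.

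The difference AcB61 minus AcB55 passed the limma test for 17 of the 66 genes singled out beside the 7, against 10.4% of all 6286 genes with a name. The 66 include genes singled out because they passed this comparison, so nothing is read from that count. It was above 0 for Arpc1b (0.397), Id3 (0.443), Il18 (0.381), Laptm5 (0.61), Mllt6 (0.534), Rarres2 (0.501), Selplg (0.445), Slc50a1 (0.432), Sorl1 (0.298), Tmed9 (0.61) and Xbp1 (0.515). It was below 0 for Btg2 (-0.319), Cbl (-0.437), Mki67 (-1.01), Rdx (-0.237), Sgk1 (-0.349) and Xist (-1.22). Mllt6, Rarres2, Slc50a1, Sorl1 and Tmed9 were named because their ratios ran close to those of Blnk, Il16 or Itgb7, so their differences are not independent of the choice of those genes. Calls for Arpc1b, Btg2, Id3, Il18, Rdx, Sgk1, Sorl1, Tmed9 and Xbp1 were lost under at least 1 alternative.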

How the results depend on the processing

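All 315 values of the 7 genes under the alternatives stayed within 1 SD of the reported ones. Leaving out a few arrays cannot move a mean by 1 SD of the same arrays, so nothing is read from that for those settings. For the differences the SD is wide as well, 0.333 for Btg1 against a difference of 0.104. Leaving out a trio of AcB61 arrays turned the sign of the difference for Btg1 and Lsp1 and of the AcB61 mean of Satb1. Each of the 7 genes has 1 probe, so choosing 1 probe per gene gave no other value. The related genes that fell in AcB55 numbered 32 in place of 49 without AcB55 arrays 1 and 2. Between the strains, the 4 lower calls became 9 with array weights, 1 without the 2 AcB55 arrays whose titles end in b and 11 without AcB61 arrays 3, 5 and 7. The 5 higher calls became 3 over rows with values on all 14 arrays, 11 with array weights, 14 without AcB61 arrays 2, 6 and 8 and 14 without AcB61 arrays 3, 5 and 7. Leaving out 1 array at a time gave 1 to 5 lower and 3 to 7 higher calls between the strains, 38 to 41 lower and 5 to 6 higher in AcB61, and 36 to 51 lower and 7 to 10 higher in AcB55. Ctbp1 in AcB61 turned to -0.0033 (adjusted p = 0.98, limma) without AcB61 arrays 3, 5 and 7. The cause of these shifts was not tested. Shares of all rows under these settings are not given, so the shifts cannot be called particular to the related genes. No paired analysis was possible because the replicate numbers follow accession order and the labels pair no arrays.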
